A study of Mus musculus with 20 samples.

Results

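The libraries examined here measured which gene promoters of Kmt2b knockout cells were still marked by trimethylation of histone H3 at lysine 4 (H3K4me3). They were chosen by label, as the 2 H3K4me3 libraries of knockout cells and the 2 input DNA libraries of the same cells, 4 of the 20 libraries of the series, and were read over all 25965 gene windows. The cells were mouse germline stem cells (GSCs), spermatogonial stem cells in culture, kept on fibroblast feeder cells, all with the tamoxifen-inducible recombinase Rosa26-CreERT2. Knockout cells (FC/FC) had been given 4-hydroxytamoxifen (4-OHT) at 1 μM. Control cells (F/F) carried the unrecombined floxed Kmt2b alleles and had been mock-treated with ethanol. Both were collected on day 6 after treatment, and each kind of library was made from duplicate cell lines. The loss of Kmt2b and the exposure to 4-OHT go together in these groups and cannot be told apart. The libraries for trimethylated lysine 27 (H3K27me3) of the knockout cells, the H3K4me3 and input libraries of the control cells and the RNA libraries, 2 of each per genotype, were read beside them.

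H3K4me3 is found at the start of active genes and at most CpG-rich promoters, where it is recognised by factors that help to recruit the transcription machinery. Several enzyme complexes lay it down: those built around Setd1a and Setd1b, around Kmt2a and Kmt2b, and around Kmt2c and Kmt2d. Kmt2b is known for the mark at developmental promoters that also carry H3K27me3, the product of Polycomb repressive complexes. Such promoters are called bivalent, and germ cells keep many of them in a silent state.

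The knockout H3K4me3 libraries were unequal in depth, with 3830045 mapped reads in replicate 1 and 16578721 in replicate 2, against 11845918 and 14241227 in the knockout inputs and 10360151 and 18035121 in control H3K4me3. Gene windows held 20.7% and 27.2% of the reads in knockout H3K4me3, 3.01% and 2.43% in knockout H3K27me3, and 1.39% and 1.38% in knockout input. At 1 read, a window stood at 0.261 RPM (reads in the window relative to all mapped reads) in replicate 1 and at 0.0603 RPM in replicate 2, and a count of 0 allowed up to 0.783 and 0.181 RPM (3 reads; counting error only). In RNA, a gene was counted at 1 RPM or more by the mean log2 RPM of both knockout libraries. All 11 measured germ cell markers reached this, and their summed level was 2476 and 2693 RPM, against 2700 and 2595 in control. Of the 26 fibroblast feeder markers, 25 reached 1 RPM, with a summed level of 690 and 868 RPM in knockout and 623 and 660 in control, so the feeder cells' share in a promoter's mark was not tested. Sertoli and Leydig markers summed to 25.6 and 30.5 RPM in knockout and 24.7 and 23.6 in control, with 7 of 16 at 1 RPM or more and Amh, Cyp17a1, Hsd3b1, Lhcgr and Nr5a1 under 0.1 RPM. Blood and macrophage markers summed to 8.65 and 7.69 RPM, against 7.12 and 7.57 in control, with 3 of 12 at 1 RPM or more and Ptprc, Cd3e, Hbb-b1 and Hba-a1 among those under 0.1 RPM. These are bulk libraries, in which a loss of the mark in some cells and a lower mark in every cell cannot be told apart.

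The promoter of the targeted gene itself stayed strongly marked. Kmt2b appears as Wbp7, an older symbol (mm10, chr7:30568858-30588726, minus strand). It held 24.8 and 34.3 RPM of H3K4me3 in the knockout libraries against 0.422 and 0.281 RPM of input. The difference was 5.13 on the log2(RPM + 0.5) scale (SE 0.33; limma adjusted p = 8.35e-52), and it was 0.45 higher than in control, which did not pass (limma adjusted p = 0.696). Its RNA stood at 131.5 and 184.6 RPM in knockout and 142.1 and 150.05 in control. Reads summed over a gene or over its promoter do not check the deletion of part of the gene.

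The range of residual marking is shown first by the promoter sequences of 7 genes, read from RefSeq (GRCm38.p6) as the 250 bases before the annotated start, 5′ to 3′ on the strand of the gene, with every CG dinucleotide in capitals. The first pair are promoters with the highest H3K4me3 over input in the knockout, with 32 and 20 CG dinucleotides.
Ss18l1 (chr2:180042233-180042482, + strand): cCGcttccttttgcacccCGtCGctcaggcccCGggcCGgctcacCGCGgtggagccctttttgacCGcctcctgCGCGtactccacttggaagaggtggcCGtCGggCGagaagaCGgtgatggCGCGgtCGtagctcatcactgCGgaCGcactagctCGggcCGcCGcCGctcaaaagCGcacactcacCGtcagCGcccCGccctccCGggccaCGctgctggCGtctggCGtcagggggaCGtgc
Herc1 (chr9:66350200-66350449, + strand): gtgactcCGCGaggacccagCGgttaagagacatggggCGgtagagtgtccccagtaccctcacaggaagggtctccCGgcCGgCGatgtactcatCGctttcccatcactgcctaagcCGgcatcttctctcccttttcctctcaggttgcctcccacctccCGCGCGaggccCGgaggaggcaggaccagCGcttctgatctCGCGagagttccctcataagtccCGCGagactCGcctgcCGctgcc

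The next pair carried H3K4me3 and H3K27me3 together in the knockout, with 30 and 19 CG dinucleotides.
Crmp1 (chr5:37241808-37242057, + strand): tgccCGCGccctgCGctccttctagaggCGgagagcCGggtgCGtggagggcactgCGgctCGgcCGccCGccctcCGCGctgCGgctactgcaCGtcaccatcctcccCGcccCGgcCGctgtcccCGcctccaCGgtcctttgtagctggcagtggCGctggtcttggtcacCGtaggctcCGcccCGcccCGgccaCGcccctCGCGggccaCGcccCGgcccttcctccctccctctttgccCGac
Tgfa (chr6:86194972-86195221, + strand): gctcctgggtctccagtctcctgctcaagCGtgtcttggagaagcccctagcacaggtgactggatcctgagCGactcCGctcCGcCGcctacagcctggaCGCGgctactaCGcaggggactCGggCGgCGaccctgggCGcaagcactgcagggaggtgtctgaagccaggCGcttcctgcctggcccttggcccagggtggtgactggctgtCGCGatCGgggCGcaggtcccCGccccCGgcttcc

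The third pair carried H3K4me3 in control cells. In the knockout they lay below input in replicate 1 and above it in replicate 2, with a mean near input. Each holds 9 CG dinucleotides.
Ucn (chr5:31138896-31139145, - strand): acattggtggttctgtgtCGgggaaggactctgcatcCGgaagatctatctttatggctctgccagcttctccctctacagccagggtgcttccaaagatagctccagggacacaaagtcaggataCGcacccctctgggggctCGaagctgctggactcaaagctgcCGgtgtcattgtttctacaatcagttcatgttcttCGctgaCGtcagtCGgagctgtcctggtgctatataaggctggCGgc
Galntl6 (chr8:58911628-58911877, - strand): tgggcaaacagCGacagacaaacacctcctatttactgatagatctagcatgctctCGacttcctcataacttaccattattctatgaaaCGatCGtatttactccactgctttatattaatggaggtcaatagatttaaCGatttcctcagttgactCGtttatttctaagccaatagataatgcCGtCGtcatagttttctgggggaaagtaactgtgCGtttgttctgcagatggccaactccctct

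The last, the promoter of a vomeronasal receptor gene, was unmarked in both genotypes and holds 1 CG dinucleotide.
Vmn1r228 (chr17:20777502-20777751, - strand): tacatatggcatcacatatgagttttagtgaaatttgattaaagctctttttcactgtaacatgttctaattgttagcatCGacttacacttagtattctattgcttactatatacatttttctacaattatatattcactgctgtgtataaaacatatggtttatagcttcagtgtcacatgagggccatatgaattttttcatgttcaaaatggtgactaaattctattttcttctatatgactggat

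Most of the promoters marked in control cells were still marked in knockout cells. To compare each library with input, the log2(RPM + 0.5) of the input with the same number was subtracted, and this difference is called the ratio below. A window was said to carry H3K4me3 where the ratio was at least 1.5 in both libraries, a size threshold with no test. This held for 13405 of 25965 windows (51.6%). By limma, H3K4me3 was higher than input in 14737 windows (56.8%) and lower in 293 (1.13%) at an adjusted p under 0.05. Each library on its own put 13573 and 14394 windows past the threshold, against 15037 and 15251 in the control libraries. Over all windows the ratios of both replicates correlated with a Pearson's r of 0.948 and a Spearman's rho of 0.895. These describe 25965 windows of the same libraries, which are not independent replicates.

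**Figure D1:**
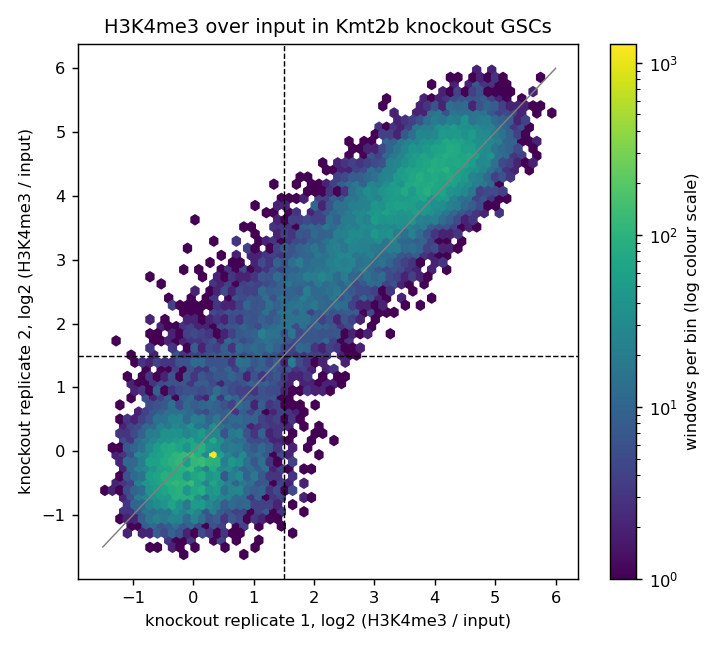
H3K4me3 over input in knockout replicate 1 (horizontal) and replicate 2 (vertical), both as log2 ratios, for 25965 windows, with the number of windows per bin in colour (log scale). Dashed lines mark the threshold of 1.5 and the grey line equal ratios: a cloud around 0 and a cloud near 4 stand apart, and windows between them lie mostly above the grey line.

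The marked and the unmarked windows formed separate clouds. Windows carrying the mark had a median ratio of 3.72 in replicate 1 and 4.15 in replicate 2, and the others 0.03 and -0.09. Between the clouds the libraries differed: 989 windows passed the threshold in replicate 2 only and 168 in replicate 1 only. The 989 had a median of 1.57 RPM in replicate 1, which is 6 reads, and 3.74 RPM in replicate 2, which is 62 reads. Of these, 91.7% carried the mark in control cells and 58.9% carried H3K27me3 in the knockout. At the median input level the threshold came to 8.99 reads in replicate 1 and 38.2 in replicate 2. Close to it, 413 windows lay just inside (the lower of both ratios between 1.5 and 1.75) and 379 just outside (1.25 to 1.5).

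The strongest residual marks lay more than 5 log2 units above input. Ss18l1 (chr2:180042509-180070201), a subunit of a chromatin remodelling complex, held 38.9 and 51.8 RPM of H3K4me3 against 0.253 and 0.421 RPM of input, a log2 difference of 5.77 (SE 0.30; limma adjusted p = 2.83e-79). The ubiquitin ligase gene Herc1 (chr9:66350450-66508775) held 35.5 and 44.0 RPM, a log2 difference of 5.59 (SE 0.31). The others of the highest 8 under the naming rule were Atp2a2, a calcium pump of the endoplasmic reticulum (5.56), Cox4i1 of the respiratory chain (5.50), the mitochondrial ribosome gene Mrpl48 (5.49), the RNA-processing gene Lsm7 (5.48), Wdr77, a partner of an arginine methyltransferase (5.47), and Smek1, a regulatory subunit of a phosphatase (5.47). Both knockout libraries exceeded both inputs at each of these genes, which were chosen by this same measure, so this adds no support. In control cells the same 8 windows held between 28.4 and 38.9 RPM, and none differed between the genotypes (limma adjusted p from 0.285 to 0.808). Of all windows 0.635% were called lower and 0.0231% higher in that test.

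Most windows carrying H3K4me3 in the knockout lacked H3K27me3, but 1926 carried both. For H3K27me3 the threshold was a ratio of 1, reached in both libraries by 3406 windows (13.1%), while limma called 4288 windows higher than input (16.5%) and 993 lower (3.82%). Those with both marks were 7.42% of all windows, 14.4% of those with H3K4me3 and 56.5% of those with H3K27me3. In control cells 1992 windows carried both, which were 13.3% of the H3K4me3 windows and 78.4% of the 2541 H3K27me3 windows. The 11479 windows with H3K4me3 only had a median of 15.9 and 21.5 RPM of H3K4me3 in the knockout libraries, against 5.48 and 8.81 RPM in those with both marks. The 1480 windows with H3K27me3 only had 1.04 and 1.81 RPM of H3K4me3, above their inputs (0.507 and 0.492 RPM), and limma called 719 of them higher than input. The 11080 windows with neither mark had 0.235 RPM, the value given to no read in replicate 1, and 0.241 RPM in replicate 2. Their inputs stood at 0.422 and 0.421 RPM, and their median ratios were 0.015 and -0.198. Limma called 613 of them higher.

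**Figure D2:**
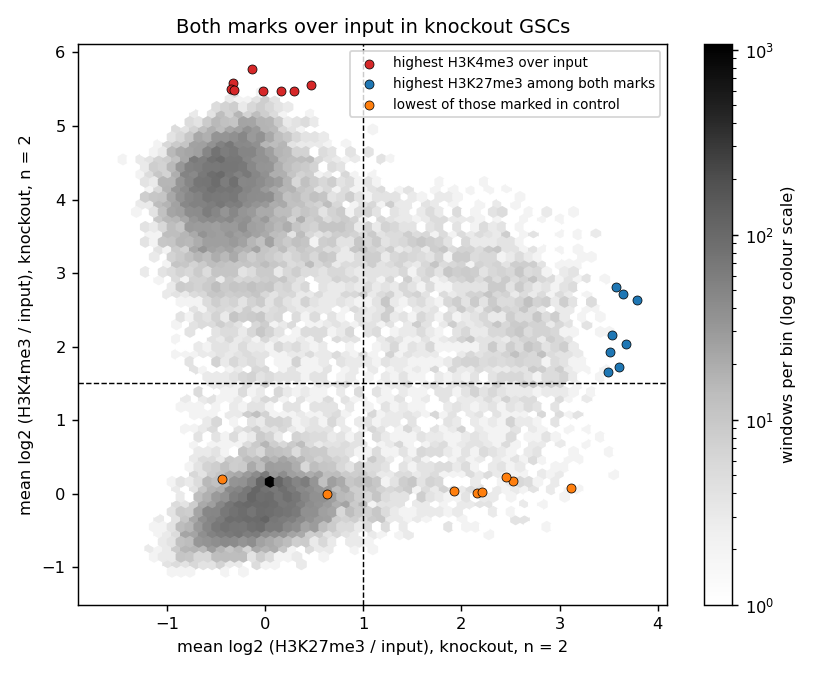
H3K27me3 over input (horizontal) and H3K4me3 over input (vertical) in knockout cells, as log2 ratios averaged over 2 libraries per mark, for 25965 windows (grey, windows per bin on a log colour scale), with 3 sets of 8 named genes in colour. Dashed lines mark the thresholds of 1 and 1.5: the 8 genes of highest H3K4me3 (red) lie left of the H3K27me3 threshold, and the 8 of highest H3K27me3 (blue) have H3K4me3 between 1.65 and 2.81.

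H3K27me3 was most frequent at an intermediate level of residual H3K4me3. By mean ratio, H3K27me3 was carried by 2.90% of windows below 0, 10.4% from 0 to 0.75, 48.5% from 0.75 to 1.5 and 57.1% from 1.5 to 2.25. The share then fell away, to 46.1% from 2.25 to 3, 20.5% from 3 to 3.75, 2.87% from 3.75 to 4.5 and 0.306% above 4.5. Over windows carrying H3K4me3, Spearman's rho between both ratios was -0.38 (13405 windows). Both ratios share the same input libraries and the same windows, so this is a description of these libraries.

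Genes with strong H3K27me3 beside residual H3K4me3 included several of the nervous system. Crmp1 (chr5:37242080-37292132), which acts in the guidance of axons, held 11.1 and 7.69 RPM of H3K27me3 and 2.09 and 6.88 RPM of H3K4me3, against 0.0844 and 0.351 RPM of input. Its H3K4me3 was 2.63 above input (log2, SE 0.48; limma adjusted p = 6.49e-08). Kif1a, a motor protein of axonal transport, held 10.9 and 8.45 RPM of H3K27me3 with 4.70 and 6.27 RPM of H3K4me3. The NMDA receptor gene Grin2c held 2.87 and 3.38 RPM of H3K4me3, the calcium channel gene Cacna1e 1.57 and 3.02, and Olfm1, a secreted protein of neurons, 2.35 and 4.22. Outside the nervous system were the growth factor gene Tgfa (2.09 and 7.36 RPM of H3K4me3, 10.1 and 6.55 of H3K27me3) and Alox5, an enzyme of leukotriene synthesis (1.83 and 2.90 RPM of H3K4me3). Dgkz, a diacylglycerol kinase, combined both marks with 92.3 and 103.9 RPM of RNA, while the RNA of the other 7 lay under 2 RPM. A lower level than in control was not particular to these 8. The 1926 windows with both marks had H3K4me3 medians of 5.48 and 8.81 RPM in knockout and 13.1 and 15.9 in control. All 8 held less H3K4me3 in both knockout libraries than in either control library (Tgfa 12.3 and 16.6 RPM, Crmp1 12.7 and 15.8). The share of all windows that did so was not counted. The difference over input did not pass limma's test at the 8 (adjusted p from 0.0564 at Alox5 to 0.742 at Grin2c). Without knockout H3K4me3 replicate 2, the shallower replicate 1 stood alone. The log2 difference was then -2.21 at Crmp1, -2.29 at Dgkz, -1.73 at Tgfa and -2.30 at Alox5. With both libraries it was -1.46, -1.67, -0.93 and -2.02. When the inputs were not used, the difference passed at these 4 (limma adjusted p from 0.0168 to 0.0293). That fit called 779 of 25965 windows lower, against 165 with the inputs. The calls of H3K4me3 over input at Cacna1e, Alox5 and Dgkz did not survive without knockout input replicate 1 (log2 1.252, 1.40 and 1.65; limma adjusted p = 0.193, 0.134 and 0.0774). That at Cacna1e was also lost without knockout H3K4me3 replicate 2 (1.35; limma adjusted p = 0.0676).

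The mark of control cells was kept at most promoters. Of 14936 windows carrying H3K4me3 in control (57.5% of all), 13382 (89.6%) still carried it in the knockout, 1554 did not, and 23 carried it in the knockout only. Retention was also counted by the strength of the mark in control cells. The same threshold defined the mark in both genotypes, so windows near it in control can cross it with a small change. Cut into 5 bins of like size by the mean control ratio, from the weakest to the strongest, 52.9%, 96.0%, 99.2%, 99.8% and 100% of windows still carried the mark. With the threshold set in replicate 2 alone, 95.7% were kept, and with replicate 1 alone 90.3%.

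The share kept was lower among windows that carried H3K27me3 in control cells, in counts that were not tested. Of 1992 such windows 59.5% still carried H3K4me3, against 94.2% of the 12944 without H3K27me3. Within the weakest bin the shares were 33.3% and 63.8%, within the next 85.0% and 98.3%, and within the strongest bin both were 100%. The gap was smaller in the deeper library: above the weakest bin, at least 99.96% of both classes passed in replicate 2, and over all bins 83.3% and 97.6% did. The median knockout ratio was lower in the windows with H3K27me3 in every bin, at 1.56 against 2.21, 2.52 against 3.54, 2.95 against 3.97, 3.18 against 4.23 and 3.45 against 4.51. Windows of 2 libraries are not replicates. From the class with both marks in control, 1138 windows carried both in the knockout, 767 carried H3K27me3 only, 47 H3K4me3 only and 40 neither. From the class with H3K4me3 only, 11410 stayed so and 787 carried both marks in the knockout.

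**Figure D3:**
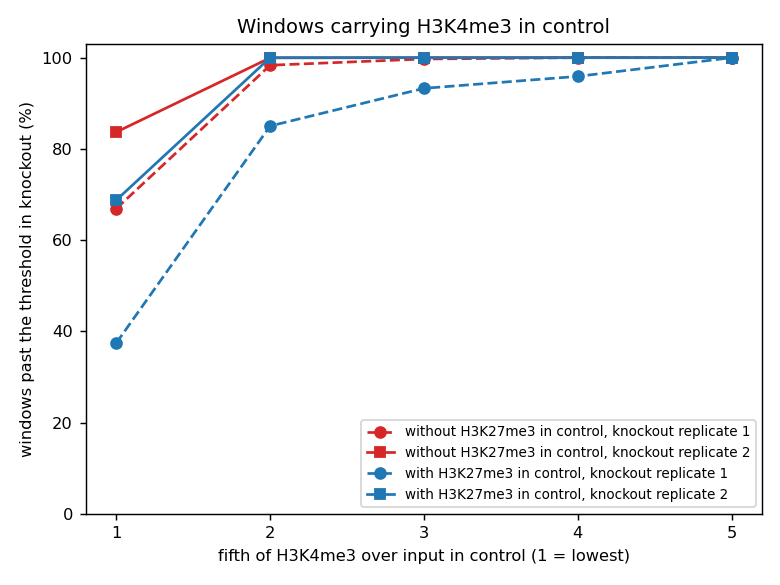
Share of windows past the H3K4me3 threshold in knockout replicate 1 (dashed, circles) and replicate 2 (solid, squares), in percent, by bin of H3K4me3 over input in control (1 is the weakest), for windows with (blue) and without (red) H3K27me3 in control. In replicate 1 the blue line starts at 37.4% and the red at 66.9%; in replicate 2 they start at 68.8% and 83.7% and meet at bin 2.

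Many windows below the threshold in the knockout were not free of the mark. The 1554 windows had medians of 5.12 and 6.65 RPM of H3K4me3 in control and 1.57 and 2.71 RPM in knockout, against 0.591 and 0.492 RPM of knockout input. By limma, 1098 of them (70.7%) were still higher than input. The threshold was passed in replicate 2 alone by 907 (58.4%), in replicate 1 alone by 105, and in neither by 542 (34.9%). H3K27me3 was carried in the knockout by 937 (60.3%), and 604 of 1502 with an RNA measurement reached 1 RPM by the mean log2 RPM of both knockout libraries.

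Averaged over both libraries, the lowest residual marks among promoters marked in control cells were near the level of input. The 8 lowest under the naming rule, which asked for at least 5 RPM in control, were Cplx2, Ucn, Galntl6, Rgs8, Fgf4, Hapln1, Coq2 and March1. Ucn (chr5:31138063-31138829), which encodes the stress peptide urocortin, held 6.18 and 6.88 RPM in control and 0.783 and 2.41 RPM in knockout, where input stood at 1.35 and 1.47 RPM. Fgf4 (chr7:144861386-144865243), a growth factor gene of early embryonic cells, held 4.83 and 6.38 RPM in control and 0.261 and 1.57 RPM in knockout. At Ucn and Fgf4 both knockout libraries lay below both control libraries, which the naming rule favours. Both genes carried H3K27me3 in the knockout (9.79 and 6.55 RPM, and 10.8 and 9.01 RPM). Rgs8, a regulator of G-protein signalling, and Galntl6, of a family of sugar transferases, held no read in replicate 1 and 2.71 and 1.63 RPM in replicate 2. Hapln1, a linker protein of cartilage matrix, and the synaptic gene Cplx2 held 1 read each in replicate 1 and 1.39 and 1.51 RPM in replicate 2. The ubiquitin ligase gene March1 held 0.261 and 1.93 RPM. Coq2, an enzyme of coenzyme Q synthesis, did not carry H3K27me3 (0.338 and 0.949 RPM) and held no read in replicate 1, 3.56 RPM in replicate 2, and 36.3 and 43.5 RPM of RNA. Cplx2 did not reach the H3K27me3 threshold either (1.62 and 1.23 RPM). At all 8, replicate 2 was higher than replicate 1, by 3.08 to 15.1 times. H3K4me3 lay below input in replicate 1 at all 8, with ratios from -1.26 (Coq2) to -0.40 (Hapln1). In replicate 2 it lay above input at all 8, with ratios from 0.51 (Cplx2) to 1.67 (Coq2). Coq2 thus passed the threshold of 1.5 in replicate 2. None of the 8 was called over input (limma adjusted p from 0.68 to 0.991), an outcome set by their choice as the lowest of this same measure. Without knockout H3K4me3 replicate 1, Rgs8 and Coq2 were (log2 1.097 and 1.44; limma adjusted p = 0.0414 and 0.021).

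The residual mark was also tested against the mark of control cells, each over its own input. This difference passed limma's test in 165 windows that were lower in knockout (0.635%) and 6 that were higher (0.0231%), and 128 of the 165 were among the 1554 windows that no longer carried the mark. Ucn was lower by 2.79 on the log2 scale (difference -2.79, SE 0.58; limma adjusted p = 0.0199). Hapln1 stood at -2.81, Cplx2 at -2.68, March1 at -2.56, Coq2 at -2.41, Fgf4 at -2.36 and Rgs8 at -2.34 (limma adjusted p from 0.0199 to 0.0353 over these 7), and Galntl6 at -2.14 missed the threshold (limma adjusted p = 0.0541). These calls were fragile. All 7 were lost with a pseudocount of 0.25, with scaling to receptor windows, with quantile normalization and with voom. With replicate number as a block Rgs8, Fgf4, Coq2 and March1 were lost, and with a pseudocount of 1 Rgs8 and Coq2. With either control H3K4me3 library, knockout H3K4me3 replicate 1, control input replicate 1 or knockout input replicate 2 left out, 0 windows were lower. Without control input replicate 2 there was 1, without knockout input replicate 1 there were 2, and without knockout H3K4me3 replicate 2 there were 1917. The 7 named genes lost their calls without any of these libraries but knockout H3K4me3 replicate 2, and without knockout H3K4me3 replicate 1 their differences were between -2.20 and -1.18 (limma adjusted p from 0.506 to 0.565). At an unadjusted p under 0.05, 2955 windows were lower and 713 higher.

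A few windows carried the mark in the knockout and not in control. There were 23, none of which differed between the genotypes in limma at an adjusted p under 0.05. Of all windows 0.0231% were called higher in that test. Nanos3, an RNA-binding protein of germ cells, held 2.61 and 4.89 RPM in knockout and 3.09 and 2.22 RPM in control, ranges that overlap. Hist1h4c, a histone gene, held 5.22 and 4.58 RPM against 4.15 and 3.94. AI428936 held 4.70 and 3.56 RPM against 2.41 and 2.94. Cpeb4, a regulator of mRNA translation, held 3.92 and 1.99 RPM against 0.290 and 1.33, with an adjusted p of 0.123 in limma for the difference.

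Housekeeping genes carried the mark with few exceptions. Of 85 cytosolic ribosomal protein genes, 82 carried it and were called over input (96.5%). Of all windows 51.6% carried it and 56.8% were called. Their median log2 difference was 4.56 in this list, against 2.14 over all windows. Rpl3l, a muscle paralogue, was the lowest with 0.235 and 1.03 RPM, and did not carry the mark in control either (1.54 and 2.50 RPM). Of 39 proteasome genes 37 carried the mark (median 4.25), as did 19 of 20 aminoacyl-tRNA synthetase genes (median 4.47) and 40 of 41 cell cycle genes (median 3.96). Some exceptions were genes with much RNA: Psma6 held 0.522 and 0.0543 RPM of H3K4me3 beside 124.5 and 111.2 RPM of RNA, and Aars 2.09 and 2.71 RPM beside 129.3 and 149.96 RPM. Where a window lies relative to the start of its gene is not stated, and a window without the mark does not show an unmarked gene. The windows of Psma6 and Aars held 0.0965 and 0.222 RPM, and 3.47 and 5.49 RPM, in control. Unlike Psma6, Aars carried the mark in control. In the knockout it was called over input (log2 1.58; limma adjusted p = 0.00158; 1.40 without knockout input replicate 2). Its ratio was 1.25 in replicate 1 and 1.92 in replicate 2, so only replicate 2 passed the threshold.

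**Figure D4:**
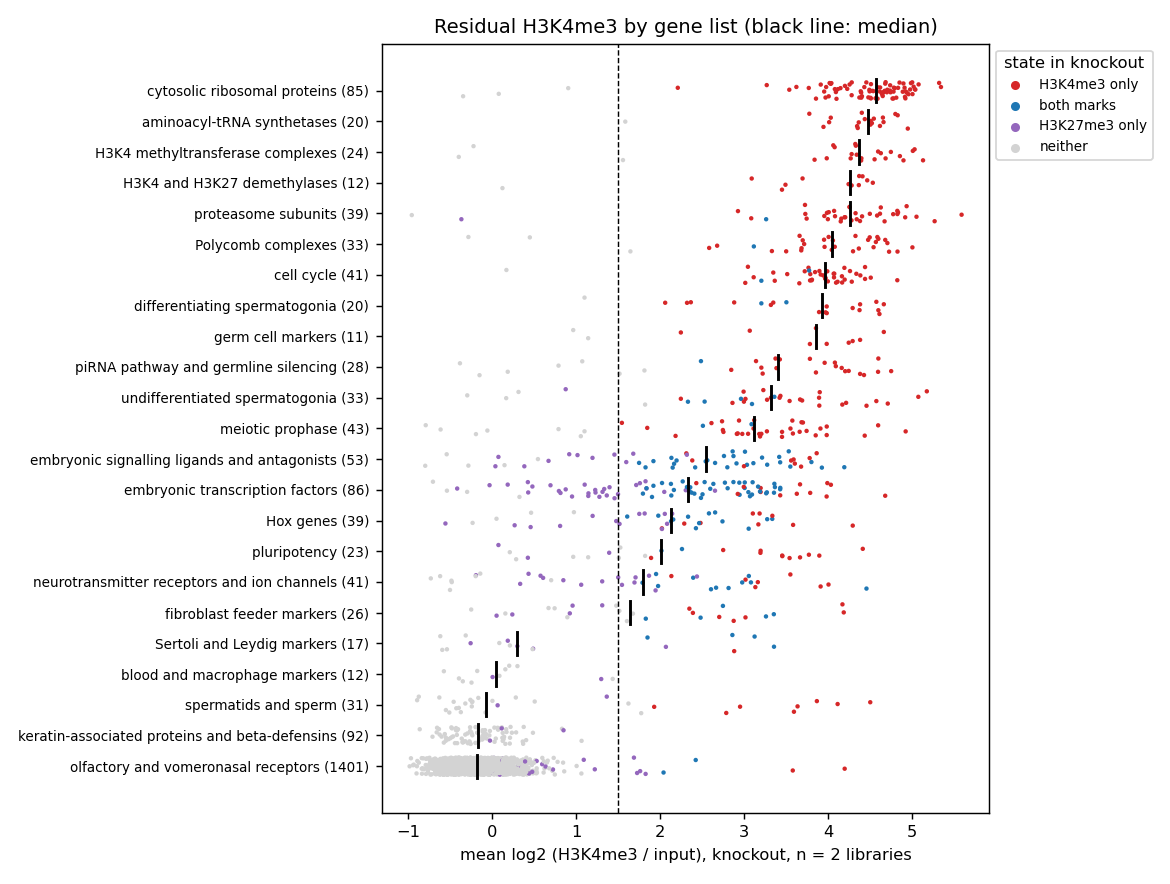
Mean H3K4me3 over input in knockout (log2 ratio, 2 libraries) for the members of 23 gene lists, coloured by their state in knockout, with a black line at the median and the number of members in parentheses. The dashed line marks 1.5: ribosomal and other housekeeping lists lie around 4, developmental lists spread across the threshold with H3K27me3, and receptor genes lie around 0.

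The machinery that writes and removes these marks was itself marked. Of 24 genes of the H3K4 methyltransferase complexes, 21 carried H3K4me3 in the knockout (87.5%, against 51.6% of all windows), the same number as in control (median 4.36). Among the catalytic subunits, Setd1a held 25.3 and 28.9 RPM, Setd1b 19.8 and 23.9 RPM, and Kmt2a, listed as Mll1, 20.6 and 32.9 RPM. Of 33 Polycomb genes 30 carried it (median 4.04), among them the methyltransferase gene Ezh2 (12.01 and 22.1 RPM) and its partners Eed (21.7 and 25.5 RPM) and Suz12 (21.4 and 32.9 RPM). Of 12 demethylase genes 11 carried it, and Kdm6b, which removes H3K27me3, had the lowest value with 1.31 and 0.664 RPM. Kdm6b did not carry H3K4me3 in control either (0.386 and 0.333 RPM). No member of these 3 lists differed between the genotypes in limma. Of all windows only 0.635% were called lower and 0.0231% higher, so few or no calls in lists of this size are near that share. These subunits and those of the lists below beyond the highest and lowest member were chosen after their values were seen.

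Germline promoters were mostly still marked. Of 33 genes of undifferentiated spermatogonia 28 carried H3K4me3 in the knockout (84.8%, against 51.6% of all windows) and 29 did in control. Their median log2 difference was 3.32. Zbtb16, a factor needed for stem cell maintenance, held 31.6 and 39.1 RPM. The genes for the GDNF receptor subunits Gfra1 (8.88 and 11.5 RPM) and Ret (12.01 and 14.5 RPM) and for Id4 (14.6 and 21.4 RPM) were marked in both libraries. The integrin gene Itga6 held 0.261 and 0.181 RPM in its window, with 43.7 and 58.0 RPM of RNA. Its window did not carry the mark in control either (0.290 and 0.166 RPM). All but 1 of 20 genes of differentiating spermatogonia carried the mark. The receptor gene Kit carried H3K4me3 (8.62 and 16.9 RPM) with H3K27me3 (6.35 and 2.56 RPM). Stra8, the gatekeeper of meiosis, was the exception with 2.35 and 1.33 RPM, and did not carry H3K4me3 in control either (0.869 and 1.16 RPM). Stra8 was called over input (log2 1.096, SE 0.47; limma adjusted p = 0.0348), but not without knockout H3K4me3 replicate 1 (0.78) or either knockout input (1.011 and 1.18; limma adjusted p from 0.136 to 0.296 over the 3 fits).

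Genes of later stages were split. Of 43 genes of meiotic prophase 36 carried the mark (83.7%, against 51.6% of all windows) and 37 did in control, with a median log2 difference of 3.11. Among them were Sycp3 of the synaptonemal complex (23.0 and 21.7 RPM) and Prdm9, itself a histone methyltransferase of meiosis (19.06 and 22.5 RPM). The piRNA pathway and germline silencing list had 21 of 28 (24 in control), from Mov10l1 (24.0 and 22.6 RPM) down to Dnmt3l (0.235 and 0.362 RPM). Dnmt3l did not carry H3K4me3 in control either (0.290 and 0.388 RPM). Of 31 spermatid and sperm genes 8 carried it (12 in control; median -0.08). The protamine gene Prm1 held 0 reads in replicate 1 and 0.0603 RPM in replicate 2, and the acrosomal protease gene Acr the same. Acr was below input in limma (log2 -0.90, SE 0.34; adjusted p = 0.0156). The call was lost without knockout H3K4me3 replicate 2 (log2 -0.70; limma adjusted p = 0.13) or knockout input replicate 1 (-0.73; limma adjusted p = 0.137). Of 11 germ cell markers 9 carried the mark, with Dazl (29.0 and 29.0 RPM) and Ddx4 (19.3 and 19.4 RPM) among them. The lowest, Dppa5a, held 0.522 and 2.65 RPM against 4.15 and 5.43 RPM in control. It was not called over input (log2 0.96; limma adjusted p = 0.0538), but it was without knockout H3K4me3 replicate 1 (1.77; limma adjusted p = 0.00888).

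Embryonic transcription factor genes carried H3K27me3 in most cases, alone or with H3K4me3. Of 86 such genes 77 carried H3K4me3 in control and 52 in the knockout (60.5%, against 51.6% of all windows). In control 57.5% of all windows carried it. Of the 77 genes, 52 were kept, against 89.6% of all windows marked in control. In the knockout 39 carried both marks (7.42% of all windows did), 30 H3K27me3 only (5.70%), 13 H3K4me3 only (44.2%) and 4 neither (42.7%). Limma called 71 over input (56.8% of all windows were). The median log2 difference was 2.33, against 2.14 over all windows. Foxf1a, the highest, held 21.7 and 30.3 RPM of H3K4me3, and Runx2, a regulator of bone formation, the least with 0.235 and 0.422 RPM. Runx2 did not carry H3K4me3 in control either (0.579 and 0.166 RPM). The endoderm gene Gata6 kept both marks with 4.96 and 9.65 RPM of H3K4me3, as did the eye and forebrain gene Pax6 with 3.13 and 5.97 and the mesendoderm gene Eomes with 9.40 and 4.58. Brachyury (T), the mesoderm factor, held 0.522 and 4.40 RPM, which put replicate 2 past the threshold and replicate 1 at the level of input. Sox17, another endoderm gene, held 1.83 and 1.45 RPM beside 8.37 and 7.59 RPM of H3K27me3. Against control, 6 of the 86 were lower by limma (0.635% of all windows were), in the test whose calls did not survive most left-out libraries.

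Signalling genes and the Hox clusters also held promoters of every state. Of 53 embryonic ligand and antagonist genes 37 carried H3K4me3 in the knockout (69.8%, against 51.6% of all windows), and 46 did in control. Of these 46, 37 were kept, against 89.6% of all windows marked in control. Both marks were carried by 28, as by 7.42% of all windows. The BMP antagonist gene Chrd was highest with 11.5 and 19.5 RPM of H3K4me3 and 5.47 and 3.23 RPM of H3K27me3. Fgf10 was lowest with 0.235 and 0.302 RPM of H3K4me3, and did not carry it in control either (0.386 and 0.610 RPM). Bmp4 carried H3K4me3 only (4.70 and 5.55 RPM), and Wnt3a H3K27me3 only (1.04 and 3.02 RPM of H3K4me3). Of 39 Hox genes, which pattern the body axis, 22 carried H3K4me3 (56.4%, near the 51.6% of all windows) and 31 did in control. Of these 31, 22 were kept, against 89.6% of all windows marked in control. Both marks were carried by 13. Hoxd4 was the lowest with 0.235 and 0.422 RPM of H3K4me3, and did not carry it in control either (0.193 and 0.333 RPM). Of 41 genes for neurotransmitter receptors and ion channels 18 carried H3K4me3 (43.9%, against 51.6% of all windows). In control 31 did, as did 57.5% of all windows. Of these 31, 18 were kept, against 89.6% of all windows marked in control. Both marks were carried by 11. Chrna4, a nicotinic receptor subunit, was lowest with 0.522 and 0.0603 RPM of H3K4me3, and did not carry it in control either (0.193 and 0.0554 RPM).

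Of 23 pluripotency genes 13 carried the mark (56.5%, against 51.6% of all windows) and 21 did in control. Of these 21, 13 were kept, against 89.6% of all windows marked in control. Klf4 (14.4 and 19.4 RPM), Lin28a (15.1 and 19.6 RPM) and Sox2 (4.70 and 10.9 RPM) carried it. Pou5f1, a core factor of pluripotent cells that germ cells also express, held 1.31 and 4.58 RPM against 4.73 and 7.76 in control, so that replicate 2 passed the threshold and replicate 1 did not. Nanog, another core factor, held 0.261 and 0.543 RPM, and 0.193 and 0.0554 RPM in control.

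Markers of other cells were marked in part, and large receptor families hardly at all. Of 26 fibroblast feeder markers 12 carried the mark in the knockout (46.2%, near the 51.6% of all windows) and 15 did in control. Their median log2 difference was 1.64, with Fn1 of the extracellular matrix at 21.7 and 26.4 RPM and Postn at 0.235 and 0.905 RPM. Of 17 Sertoli and Leydig markers 5 carried it (7 in control), 4 of them with H3K27me3, such as the sex-determination gene Sox9 (7.83 and 17.2 RPM of H3K4me3, 4.46 and 2.75 of H3K27me3). None of 12 blood and macrophage markers carried it (2 in control). The highest, Cd14, held 2.35 and 4.58 RPM against 0.675 and 1.19 RPM of input. The macrophage lysozyme gene Lyz2 held no read in replicate 1 and 0.0603 RPM in replicate 2. Of 1401 olfactory and vomeronasal receptor genes 4 carried H3K4me3 (13 in control), and the median log2 difference was -0.18. Vmn1r4 was highest, with 17.5 and 21.4 RPM, and Vmn1r228, whose sequence is given above, lowest with no read in replicate 1 and 0.0603 RPM in replicate 2. None of 92 keratin-associated protein and beta-defensin genes carried the mark (5 in control).

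Values below input were small and lay near the floor of the libraries. The 293 windows called lower than input had a median of 0.235 RPM in replicate 1, the value given to a window with no read, and 0.0603 RPM in replicate 2, which is 1 read, against 0.76 and 0.702 RPM of input. Their log2 differences ran from -1.16 to -0.39. Of the 1401 receptor genes 30 were among them, while 1.13% of all windows were called lower. When each library was scaled to its reads in receptor windows, which summed to 399.2 and 331.8 RPM in knockout H3K4me3 and 529.7 and 534.4 RPM in knockout input, 26 windows were lower.

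Most genes with a strong residual mark had RNA. Of windows with H3K4me3 only in the knockout, 10397 of 11160 with an RNA measurement (93.2%) reached 1 RPM. This was judged by the mean log2 RPM of both knockout libraries, and the medians were 25.1 and 27.3 RPM. With both marks it was 1021 of 1882 (54.3%), with medians of 1.18 and 1.30 RPM. With H3K27me3 only it was 408 of 1437 (28.4%), and with neither 2490 of 10588 (23.5%). By mean H3K4me3 ratio, the share rose from 19.2% below 0 to 42.9% from 0.75 to 1.5, 63.4% from 2.25 to 3 and 96.9% above 4.5. Spearman's rho between the H3K4me3 ratio and the RNA level was 0.72 over 25067 genes and 0.56 over the 13042 that carried the mark. Genes are not independent replicates, and RNA reads were not divided by gene length.

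The share of promoters with a residual mark rose with their number of CpGs, much as the share marked in control did. RefSeq held a promoter of 300 bases (250 before the start and 50 after) within 500 bases of the annotated start for 16001 windows. These are under 80% of all windows, with 73.8% of those with H3K4me3 only and 50.1% of those with neither mark. A comparison of CpG content between the classes above is therefore void and is not given. The shares below have the same limit and describe these 16001 promoters alone. The motif searched was CG, which reads the same on both strands, and 59.1% of these promoters held at least 10. With 0 to 4 CG dinucleotides, 2.88% of 4337 promoters carried H3K4me3 in the knockout, and with 5 to 9, 32.1% of 2209 did. The share was 78.4% with 10 to 14, 93.2% with 15 to 19, 95.9% with 20 to 24 and 98.1% with 25 or more. In control the shares over the same bins were 5.14%, 47.9%, 91.3%, 98.4%, 99.6% and 99.6%. Retention of the control mark went the same way, at 54.3%, 66.6%, 85.8%, 94.7%, 96.3% and 98.5%. Retention by bin was not separated from the strength of the mark in control, with which it also rose. H3K27me3 was carried most often between 10 and 14 CG dinucleotides (21.5%). The 7 printed promoters follow this order only in part, since Crmp1 holds more CG dinucleotides than Herc1 and had less H3K4me3.

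**Figure D5:**
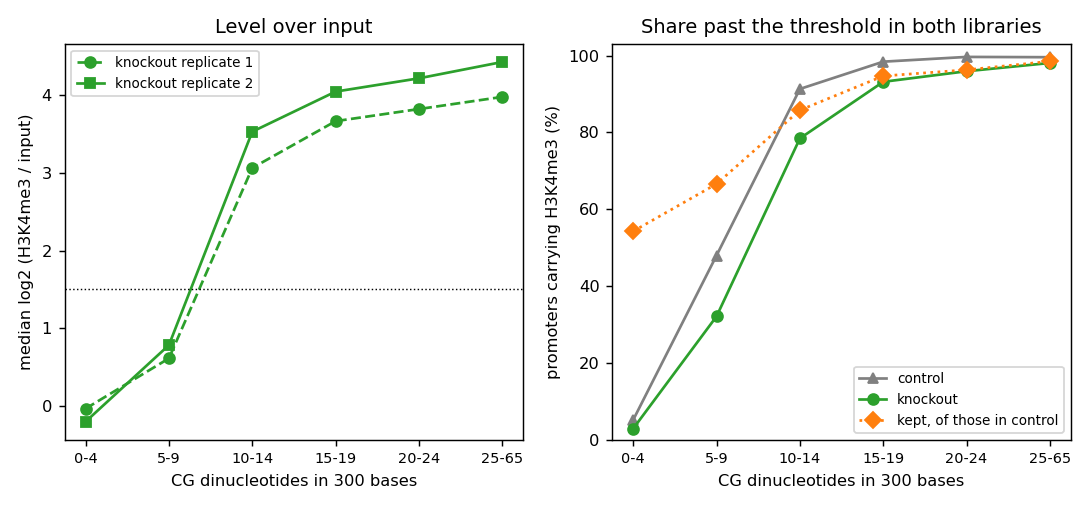
By number of CG dinucleotides in 300 bases (16001 promoters), the left panel gives the median log2 ratio of H3K4me3 to input in each knockout library, and the right panel the percentage of promoters carrying H3K4me3 in control (grey) and knockout (green) and of control-marked promoters still marked in knockout (orange). The level rises from about the input (-0.04 and -0.20) to 3.98 and 4.43, and the green curve lies farthest below the grey at 5 to 9 CG dinucleotides, at 32.1% against 47.9%.

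On the autosomes 12953 of 24483 windows (52.9%) carried the mark and 89.9% of control-marked windows kept it. On the X chromosome 446 of 1091 (40.9%) carried it and 82.5% were kept. On the Y chromosome, whose genes include many near-identical copies that share reads, 6 of 378 (1.59%) carried it.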

How the data were processed

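H3K4me3, H3K27me3 and input DNA were sequenced in 2 control and 2 knockout libraries each, and RNA in 2 of each. The authors deposited log2 RPM values, for 1 window per gene in chromatin (25965 windows) and per gene in RNA (25067 genes). Per the submitters' processing notes, the build is mm10 and the tools include TopHat2 2.0.14, Bowtie 1.1.1, Trim Galore 0.4.0 and CASAVA 1.8, with no roles named. Window size and place are not given in the sources used here. In every library the values were whole multiples of 1 read (all within 0.1 of a read), from which mapped reads were taken, and windows with no read stood at 0.9 of a read. Symbols matched RefSeq for 20519 windows, by an older symbol for 2370 more, and not for 3076. The H3K9me3 libraries and their inputs were not used.

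Values were converted to RPM and tested as log2(RPM + 0.5), a scale that understates changes of low windows, with limma 3.58.1 in R 4.3.3 (mean-variance trend, two-sided, Benjamini-Hochberg adjustment over all 25965 windows, called at 0.05). The 3 fits were knockout H3K4me3 against input, knockout H3K27me3 against input, and the difference of H3K4me3 over input between the genotypes. With 2 libraries against 2, an exact permutation test of 1 window cannot give less than 0.333, and the small limma p-values rest on the spread shared over windows. P-values measure the spread between the 2 libraries of a group, made from duplicate cell lines and unequal in depth. The labels do not tie a replicate number to a line. The thresholds of 1.5 and 1 are sizes without a test.

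Named genes, skipping any within 2 kb of one already named, were Kmt2b, the 8 highest, the 8 lowest of those carrying the mark in control at 5 RPM or more, the 8 with both marks and the highest H3K27me3, the 4 highest not marked in control, and the highest and lowest of each gene list. A few genes under this rule are not reported here. Members, lists and tests were chosen with earlier results of these data known. Alternatives were other pseudocounts, scalings, filters, models, a replicate block, and leaving out each library. The threshold in replicate 2 alone by H3K27me3 class was chosen after seeing the data.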

Additional observations from a re-analysis of the deposited data

Results flagged for a closer look

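A difference between the genotypes in H3K4me3 over input, tested as an interaction in limma, marked these results for a second look: 165 windows were lower in knockout and 6 were higher. Among the named genes, the log2 difference was -2.79 at Ucn, -2.81 at Hapln1, -2.68 at Cplx2, -2.56 at March1, -2.41 at Coq2, -2.36 at Fgf4 and -2.34 at Rgs8. Each had at most 3 reads in knockout replicate 1, and each lost its call when that library was left out. Groups of 2 libraries are too small for a check of single outlying samples.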

How the results depend on the processing

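Over other pseudocounts, thresholds and inputs, receptor scaling, a filter at 1 RPM and single H3K4me3 libraries, the 13405 windows carrying H3K4me3 in the knockout became 12518 to 14394, the 1926 with both marks 1285 to 2509, and the 89.6% kept 86.4% to 95.7%. The windows higher than input in limma numbered 13391 to 15728 over the alternatives other than quantile normalization, which gives ChIP and input the same distribution by construction and left 2 higher, 2 lower, and 0 higher and 0 lower for H3K27me3. Under it the log2 difference from input changed sign for H3K4me3 at Hist1h4c (-0.25), Stra8 (-0.92), Sox9 (-0.27), Cd14 (-1.58) and Krtap26-1 (-0.54), and for H3K27me3 at Ucn (-0.18) and Cd14 (-0.15). The 293 windows lower than input became 26 when scaled to receptor windows, 1 with a filter at 1 RPM, 0 in limma's test against a 2-fold change, and 5 to 633 with a library left out. For H3K27me3, 4288 higher became 2926 to 3852 with a library left out, and 993 lower became 1960 when scaled to receptor windows, 0 with the filter and 16 to 335 with a library left out. The genotype difference was the least stable. Its 165 lower and 6 higher windows became 0 and 0 with a pseudocount of 0.25, 119 and 3 with a pseudocount of 1, 0 and 0 when scaled to receptor windows or quantile-normalized, 366 and 0 with the filter, 0 and 1 with voom, 779 and 49 without the input, and 0 to 1917 and 0 to 416 with a library left out. A fit that left 1 library in an arm assumed that it varied like the others. The cause of these changes was not tested. The samples share only a replicate number: deviations of same-numbered libraries correlated between -0.01 and 0.15. With replicate number as a block, 14708 windows were higher and 223 lower than input for H3K4me3, 4237 and 842 for H3K27me3, and the genotype difference kept 34 lower and 1 higher. Replicate 1 was the shallower library, and 907 of the 1554 windows below the threshold passed it in replicate 2 alone; the part of depth was not tested.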
